A study of Rattus norvegicus with 10 samples.

Results

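The sirtuins are a family of 7 genes, Sirt1 to Sirt7, and they were taken here by symbol and described by the cell compartment in which each protein works. Of the 7, 6 (Sirt2 to Sirt7) were followed in the count table and in the normalised table, among 17168 genes in all, and each of the 6 had enough reads to be tested among 11791 genes. Sirt1 was not analysed here. The RNA was that of left hippocampi of 10 rats, all female, of the TgF344-AD line and aged 11 months, perfused before the tissue was frozen. The 5 untreated rats ate ordinary rodent chow. The other 5 ate chow that held RG2833, an inhibitor of the histone deacetylases HDAC1 and HDAC3, at 750 mg per kg of chow, from 5 months of age for 6 months, with a blue food dye named in the protocol to tell the chows apart. Both groups carry the transgenes of the Alzheimer's disease model, driven by the mouse prion promoter, so the comparison is of drug against no drug within the model. No animals without the transgenes and no males were analysed here.

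Sirtuins remove acetyl and other acyl groups from lysine, and they consume NAD in each round of the reaction. HDAC1 and HDAC3 remove acetyl groups with a zinc ion in place of NAD and belong to another enzyme family. SIRT6 and SIRT7 work in the nucleus, SIRT6 on chromatin and SIRT7 mostly in the nucleolus, where ribosomal RNA is made. SIRT2 is mainly cytoplasmic and is known in brain as a protein of oligodendrocytes and myelin. SIRT3, SIRT4 and SIRT5 are imported into mitochondria.

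The promoters of Sirt7, the sirtuin whose transcript rose, and of Sirt3, a mitochondrial sirtuin whose transcript did not pass the test, are shown to set the 2 sequences side by side. Each window runs from 120 bases before the RefSeq transcription start to 30 bases after it, 5′ to 3′, in assembly GRCr8, which is not the rn6 build named for the deposited tables. Sirt7 lies on the minus strand at chr10:106401469-106401618 and Sirt3 on the minus strand at chr1:205393572-205393721. Capitals mark CGGAAG, the core bound by ETS-family factors, and GGGCGG, the GC box.
Sirt7: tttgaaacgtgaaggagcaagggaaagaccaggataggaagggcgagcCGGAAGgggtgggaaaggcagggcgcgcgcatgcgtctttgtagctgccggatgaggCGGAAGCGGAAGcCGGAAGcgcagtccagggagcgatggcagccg
Sirt3: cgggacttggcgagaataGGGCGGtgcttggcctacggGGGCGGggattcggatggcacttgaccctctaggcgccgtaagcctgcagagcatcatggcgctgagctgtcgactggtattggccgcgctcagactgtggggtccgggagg
The Sirt7 promoter of 300 bases held 4 CGGAAG matches on the strand shown, starting 72, 15, 9 and 2 bases before the transcription start, and 1 GGGCGG match further upstream. The Sirt3 promoter held 3 GGGCGG matches, starting 123, 102 and 82 bases before its start, of which the last 2 fall in the printed window, and no CGGAAG match.

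RefSeq promoters were found for 5 of the 6 tested sirtuins, and both strands of each 300-base promoter were searched for 4 motifs chosen after these sequences had been read. CGGAAG had 1 match in Sirt4 and none in Sirt2 or Sirt5, and it occurred in 16.6% of 33469 rat promoters. Of all these promoters 1.01% held 3 or more CGGAAG matches, as Sirt7 does. Among the 8826 tested genes with a promoter entry, 218 did. GGGCGG occurred in 33.1% of promoters and, among the sirtuins searched, only in Sirt3 and Sirt7. CTACANNTC, where N is any base, occurred in 4.41% of promoters, with 2 matches in Sirt4 and 1 in Sirt2. The E-box CACGTG occurred in 6.42% of promoters and in none of the 5 sirtuins searched. The matches overlapped no other motif searched. Of the 218 tested genes with 3 or more CGGAAG matches, 10, Sirt7 among them, were higher and 6 lower with RG2833. That is 7.34% of them beside 5.02% of the 8826 tested genes with a promoter entry. Their median log2 fold change was -0.03.

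Levels below are read counts relative to the library total (CPM), scaled between libraries by TMM, a trimmed mean of gene-wise ratios. CPM is not divided by transcript length, so levels were compared between animals and not between genes. Fold changes are log2 of RG2833 over untreated with their standard error (SE), from edgeR's quasi-likelihood test. A gene is said to have risen or fallen when its Benjamini-Hochberg adjusted p over all tested genes was under 0.05. By that rule 284 genes rose and 315 fell, so 2.41% of tested genes were called higher and 5.08% were called in either direction. Without adjustment, 24.5% of tested genes had a p under 0.05. The labels number the animals from 1 to 5 in each group.

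The libraries held 8764266 to 11311673 counts, so each sirtuin rests on the depth given with it below. Ribosomal RNA loci took 2.70% to 5.36% of all counts in untreated animals and 1.13% to 1.96% with RG2833, with no overlap. Markers of excitatory neurons, which define hippocampal tissue with Prox1, Slc17a7 and Neurod6 among them, were present in every library. Their summed level was 4918 to 6802 CPM in untreated animals and 6925 to 7572 CPM with RG2833, with no overlap. All 8 had a fold change above 0, 1 of them (Camk2a) was called, and the median was 0.52. Microglial markers had a median of -0.20 over 10 genes with 1 called lower, Aif1, and no astrocyte, oligodendrocyte, oligodendrocyte precursor, inhibitory neuron, endothelial or choroid plexus marker was called. Of the 8 choroid plexus markers listed only 2 had enough reads to be tested, with a median of -3.46, and of the 8 endothelial markers 6. In bulk tissue, fewer cells of a type and less RNA per cell cannot be told apart. Untreated replicate 1 carried the choroid plexus transcript Ttr at 2381 CPM, beside 3.80 to 38.4 CPM in the other 9 libraries. Ttr is 1 of the 2 choroid plexus genes tested, so their median leans on this library. Untreated replicate 4 lay among the RG2833 libraries on the first principal component. Where leaving out either of these 2 libraries alone changes the call of a sirtuin or a pathway gene named below, the value without it is given beside that gene.

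Of the 6 sirtuins tested, only Sirt7 rose with RG2833, and none fell. The other nuclear sirtuin, Sirt6, had the next largest fold change but did not pass the adjusted test. The cytoplasmic Sirt2 and the mitochondrial Sirt3 and Sirt5 had log2 fold changes of 0.01 to 0.05. Sirt4, the least deeply read, had an interval too wide to place it. That is 1 of 6 called higher, beside 2.41% of all tested genes. At an unadjusted p under 0.05 the count was 2 of 6, Sirt6 and Sirt7, beside 24.5% of all tested genes.

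**Figure D1:**
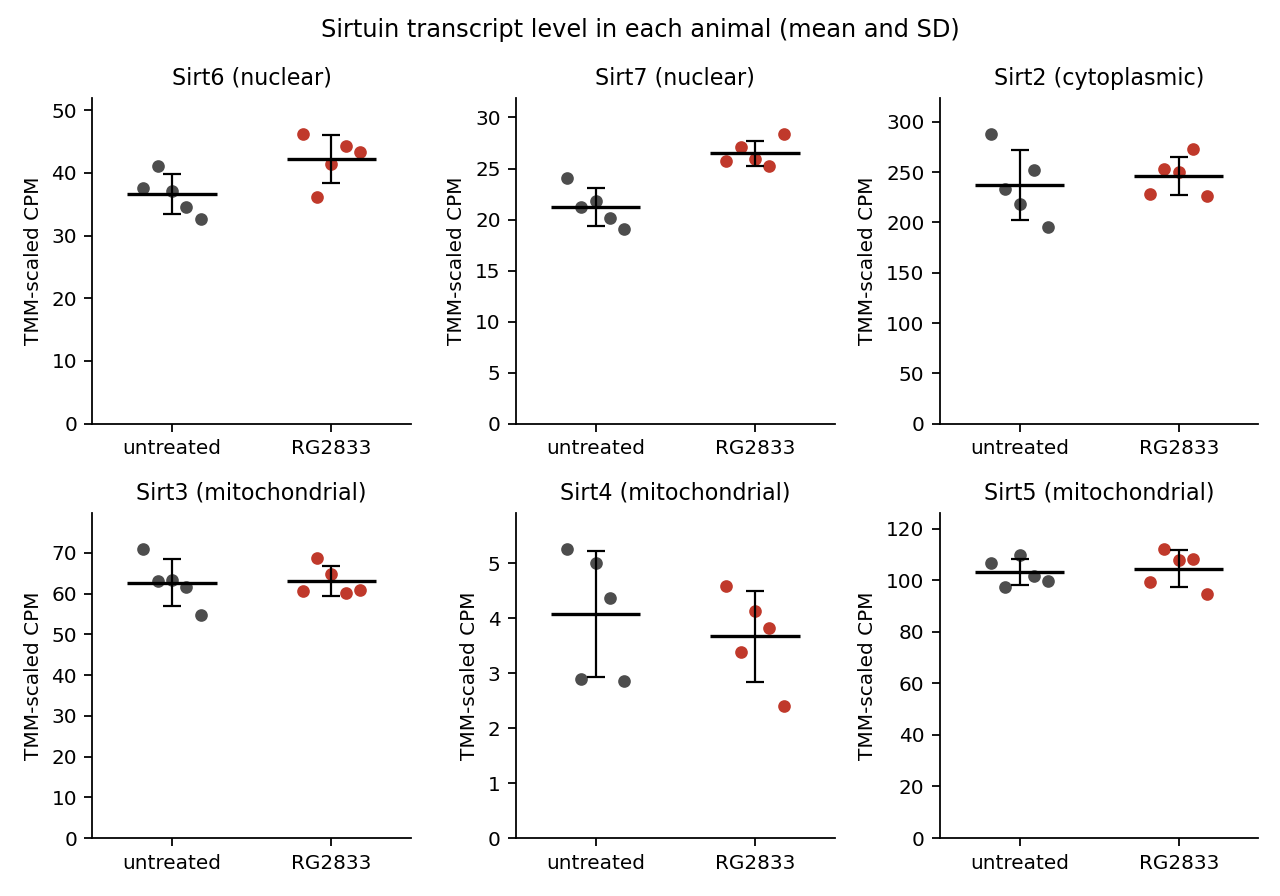
TMM-scaled CPM of 6 sirtuin genes in each of 5 untreated (grey) and 5 RG2833 (red) rats, with the group mean (bar) and SD (whiskers). The Sirt7 points do not overlap, with untreated animals at 19.0 to 24.0 CPM and RG2833 animals at 25.2 to 28.4 CPM, and the points of the other 5 genes do.

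SIRT7 binds RNA polymerase I at ribosomal DNA and also removes acetyl groups from histone H3. In the untreated animals Sirt7 stood at 24.0, 21.3, 21.8, 20.1 and 19.0 CPM in replicates 1 to 5. With RG2833 it stood at 25.8, 27.1, 25.9, 25.2 and 28.4 CPM. Every treated animal was above every untreated animal, a pattern without overlap that 3.8% of all tested genes showed in this direction. The group means were 21.2 ± 1.88 CPM and 26.5 ± 1.25 CPM (SD, n = 5 each). The log2 fold change was 0.32 ± 0.08 (SE, 95% interval 0.14 to 0.50), with an edgeR adjusted p of 0.0480, which is a 1.25-fold higher level (95% interval 1.10 to 1.41). The libraries held 180 to 304 Sirt7 counts each.

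The Sirt7 call lay close to the threshold, with the gene at rank 549 of 11791 by p. Its fold change stayed above 0 in each of 22 other settings or left-out animals, between 0.28 and 0.42, while its adjusted p was under 0.05 in 8 of them. Leaving out any animal other than untreated replicate 4 took the call away, with edgeR adjusted p from 0.0505 (without untreated replicate 1) to 0.122 (without RG2833 replicate 5). Without untreated replicate 4 the adjusted p was 0.0489. The share of ribosomal RNA counts separates the groups, as given above. The summed level of the excitatory markers separates them too. Their score, a mean of centred log2 CPM, overlapped. It was -0.715 to 0.345 in untreated animals, with replicate 4 the highest, and 0.127 to 0.432 with RG2833. With the ribosomal share as a covariate the Sirt7 fold change was 0.35 (edgeR adjusted p = 1.00), and with the excitatory marker score as a covariate it was 0.42 (edgeR adjusted p = 0.619). In these fits 2 and 5 genes of all those tested were called. The ribosomal share and the summed excitatory level both move with the treatment and cannot be told apart from it here. The part of neuronal makeup was not tested beyond the fit with the score.

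SIRT6 is a chromatin enzyme that acts in DNA repair, at telomeres and in the control of glucose metabolism. Sirt6 read 37.6, 41.2, 37.1, 34.5 and 32.7 CPM in untreated replicates 1 to 5 and 46.2, 36.1, 41.4, 44.3 and 43.4 CPM in the RG2833 replicates. Of the treated animals, 4 lay above every untreated animal, and replicate 2 lay among the untreated. The means were 36.6 ± 3.23 CPM and 42.3 ± 3.84 CPM (SD, n = 5 each). The log2 fold change was 0.21 ± 0.09 (SE, unadjusted 95% interval 0.02 to 0.40), and the edgeR adjusted p was 0.167. Sirt6 had 309 to 484 counts per library and was not called in any of the 22 alternatives, in which its fold change lay between 0.17 and 0.33.

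SIRT2 removes acetyl groups from tubulin. Sirt2 read 288, 234, 219, 252 and 195 CPM in untreated replicates 1 to 5, and 229, 253, 250, 273 and 226 CPM with RG2833. The treated animals lay inside the untreated range, which was wider, with a coefficient of variation of 14.7% beside 7.84%. Untreated replicate 1 was the highest of all 10 animals and untreated replicate 5 the lowest. The log2 fold change was 0.05 ± 0.10 (SE, 95% interval -0.17 to 0.27), with an edgeR adjusted p of 0.785. Levels of 0.892 to 1.21 times the untreated level therefore lie within the interval. Sirt2 had 1845 to 2835 counts per library, the most of the 6 genes.

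Sirt2 was set against the oligodendrocyte markers from animal to animal, since the transcript is known from these cells. The 12 markers summed to 6160 to 18650 CPM in untreated animals and 9557 to 12940 CPM with RG2833, with a median fold change of 0.10 and none called. With the group means removed, Sirt2 and the marker score had Pearson r = 0.798 (exact permutation p = 0.0196, two-sided) and Spearman rho = 0.788 (exact permutation p = 0.0270) over 10 animals. Neither passed adjustment over the 48 relations of 6 sirtuins with 8 marker lists (adjusted p = 0.940 and 0.961 from the exact permutation tests). Without the 2 animals farthest from the median score, r was 0.579, and without untreated replicate 1 alone it was 0.616. The endothelial and inhibitory neuron lists had r of -0.03 and -0.09 with Sirt2 over 10 animals, and 0.786 and 0.745 without the 2 animals farthest from their own medians, so these r values rest on few animals. None of the 48 relations had an adjusted p under 0.05.

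**Figure D2:**
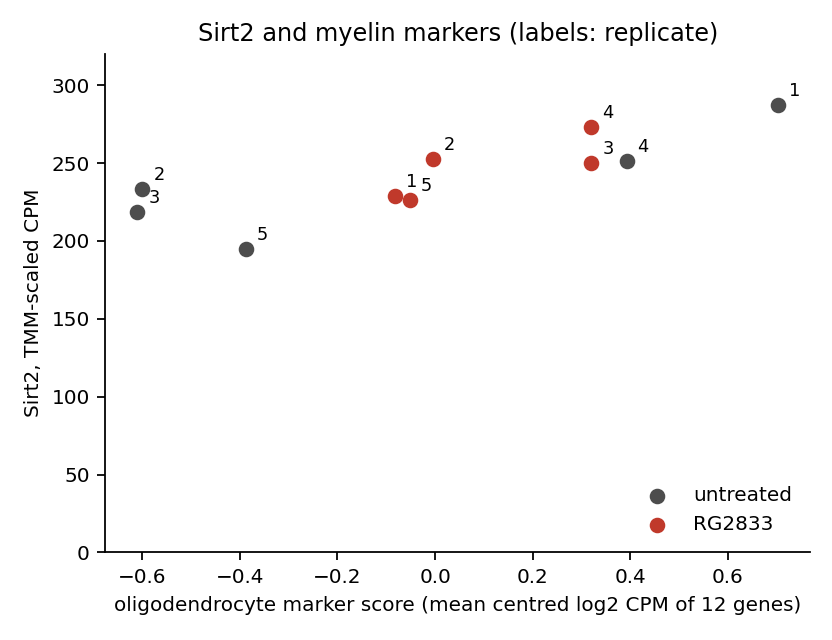
Sirt2 level (TMM-scaled CPM) against the oligodendrocyte marker score (mean centred log2 CPM of 12 markers), with 1 point per rat, grey for untreated and red for RG2833, labelled by replicate number. Untreated replicate 1 is highest on both axes, and the 5 treated animals fall within the untreated range of each.

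The 3 mitochondrial sirtuins gave no call, and their median log2 fold change was 0.01. SIRT3 is the main deacetylase of mitochondria. Sirt3 read 71.0, 63.0, 63.3, 61.5 and 54.7 CPM in untreated replicates 1 to 5 and 60.8, 68.9, 64.8, 60.2 and 60.8 CPM with RG2833. The treated animals fell inside the untreated range. The log2 fold change was 0.01 ± 0.08 (SE, 95% interval -0.16 to 0.18), with an edgeR adjusted p of 0.954. Sirt3 had 517 to 772 counts per library, and the interval spans levels of 0.897 to 1.13 times the untreated level.

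SIRT5 removes succinyl, malonyl and glutaryl groups. Sirt5 read 107, 97.5, 110.0, 102 and 99.9 CPM in untreated replicates 1 to 5 and 99.2, 112, 108, 108 and 94.8 CPM with RG2833. All untreated animals lay inside the treated range. The log2 fold change was 0.02 ± 0.07 (SE, 95% interval -0.13 to 0.16), with an edgeR adjusted p of 0.887. Sirt5 had 906 to 1258 counts per library and the narrowest interval of the 6 genes, 0.917 to 1.12 times the untreated level.

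SIRT4 is a mitochondrial sirtuin with weak deacetylase activity, known for restraining glutamate dehydrogenase. Sirt4 read 5.26, 2.90, 5.00, 4.37 and 2.86 CPM in untreated replicates 1 to 5 and 4.58, 3.39, 4.13, 3.83 and 2.41 CPM with RG2833. The groups overlapped, and the lowest animal was RG2833 replicate 5. With 23 to 54 counts per library, its coefficients of variation were 28.1% and 22.6%. The log2 fold change was -0.15 ± 0.23 (SE, 95% interval -0.65 to 0.35), with an edgeR adjusted p of 0.725. Levels between 0.637 and 1.27 times the untreated level lie within the interval. With 1 animal left out, the fold change ran from -0.25 (without untreated replicate 5) to -0.03 (without RG2833 replicate 5).

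**Figure D3:**
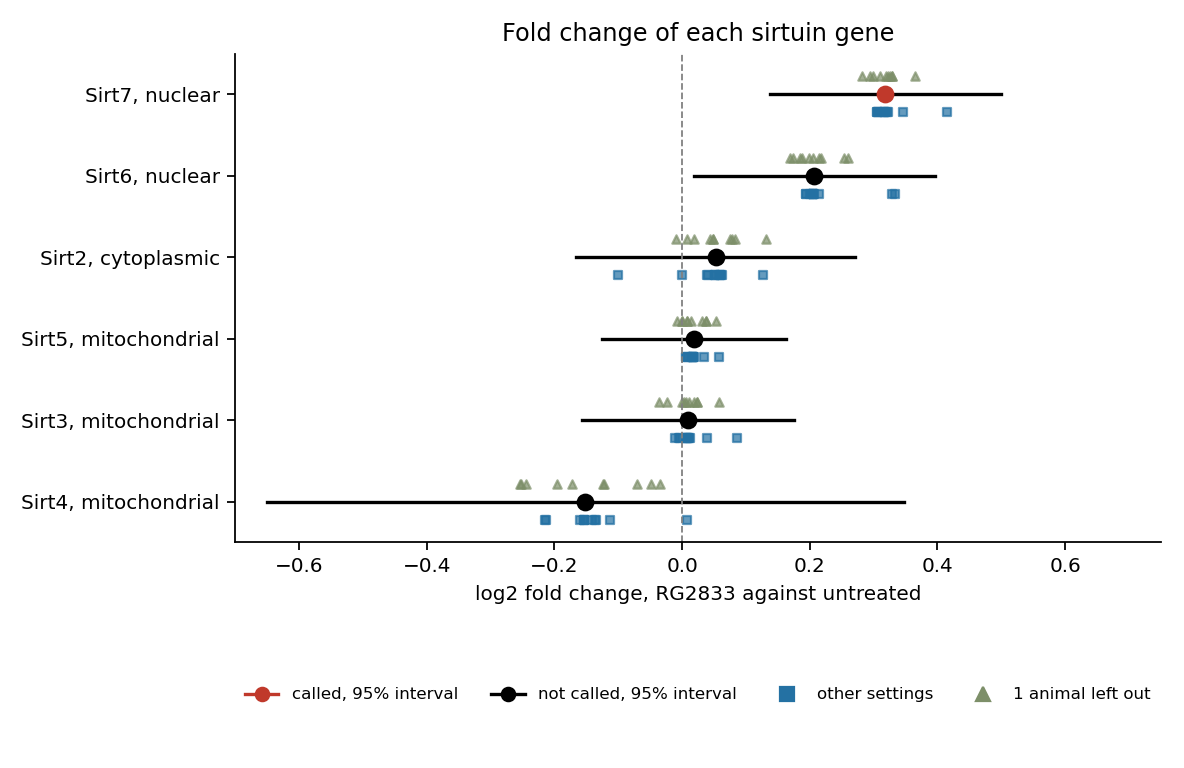
Log2 fold change of each sirtuin, RG2833 against untreated, with its 95% interval (line), the values with 1 animal left out (triangles) and under other settings (squares). Sirt7, in red, is the called gene, and all its alternatives lie between 0.28 and 0.42, while those of Sirt2, Sirt3, Sirt4 and Sirt5 fall on both sides of 0.

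The ratio of 2 genes within a library does not depend on how libraries are scaled. The ratios below were chosen after the values had been seen and carry no test. Sirt7 per Sirt3 was 0.327 to 0.348 in untreated animals, a narrow span although both genes were highest in replicate 1 and lowest in replicate 5. With RG2833 it was 0.394 to 0.466, above every untreated animal. Sirt7 per Sirt5 was also separate, at 0.191 to 0.226 and 0.233 to 0.299. Sirt6 per Sirt5 overlapped, at 0.327 to 0.422 and 0.322 to 0.465. Sirt7 per Sirt6 overlapped too, at 0.517 to 0.638 and 0.558 to 0.751. Sirt3 per Sirt5 had nearly equal means, 0.608 ± 0.0491 and 0.605 ± 0.0307 (SD, n = 5 each).

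**Figure D4:**
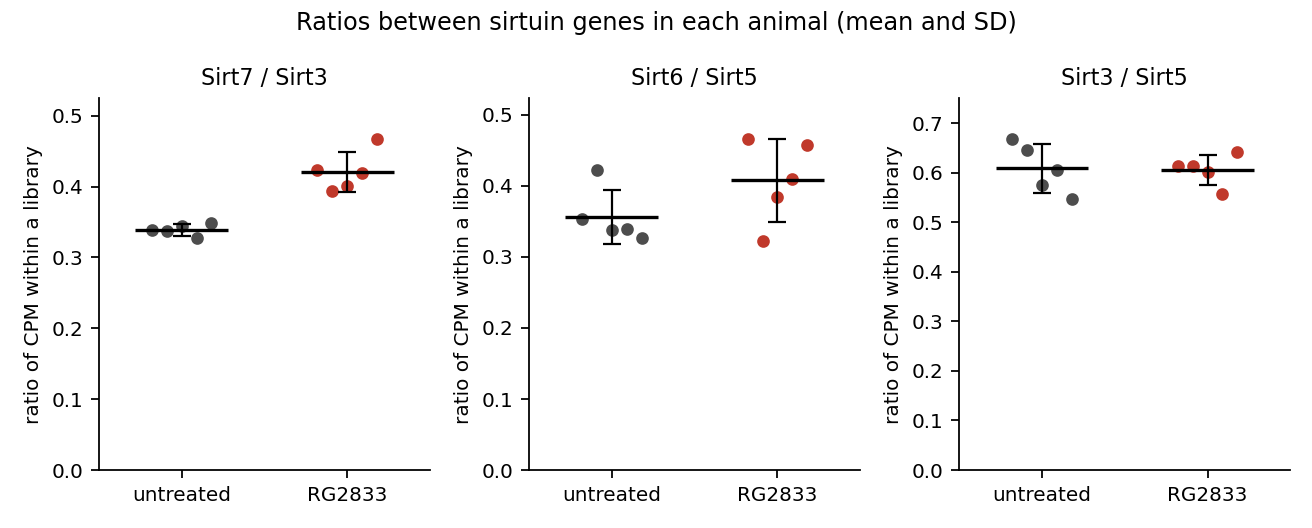
Ratio of CPM values of 2 sirtuins within each library, for 5 untreated (grey) and 5 RG2833 (red) rats, with mean and SD. Sirt7 per Sirt3 does not overlap between the groups (0.327 to 0.348 and 0.394 to 0.466), and Sirt6 per Sirt5 and Sirt3 per Sirt5 do.

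Summed by compartment, the nuclear genes Sirt6 and Sirt7, without the also nuclear Sirt1, gave 51.7 to 62.4 CPM in untreated animals and 63.2 to 71.9 CPM with RG2833. Sirt3, Sirt4 and Sirt5 together gave 157 to 183 CPM and 158 to 184 CPM. The sums of these 2 nuclear genes did not overlap between the groups, while the mitochondrial sums covered nearly the same range. Their quotient was 0.326 to 0.382 in untreated animals and 0.343 to 0.454 with RG2833. The overlap came from untreated replicate 2, at 0.382, and RG2833 replicates 2 and 3, at 0.343 and 0.381.

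Pairs of sirtuins also varied together or apart among animals of a group, here as Pearson r over 10 animals with group means removed, given as a description. Sirt3 and Sirt7 had r = 0.777, Sirt2 and Sirt3 0.722, and Sirt4 and Sirt5 0.605. Sirt5 and Sirt6 had r = -0.408, and the nuclear pair Sirt6 and Sirt7 only 0.259. The genes most like each sirtuin by this measure were sought among those with a mean log2 CPM of at least 3. For Sirt2 they were Plekhb1 (r = 0.986), Gna12 (0.961) and Ckb (0.961). For Sirt3 they were Sec62 (0.961), Uqcc2 (0.954) and Stx4 (0.941), and for Sirt4 Ppid (0.946), Enoph1 (0.945) and RGD1560212 (0.925). For Sirt5 they were Tctex1d2 (0.917), Itgb1bp1 (0.907) and Nprl2 (0.901). For Sirt6 they were Rpl37a-ps1 (0.924), Ppp1r11 (0.912) and Cd302 (0.875), and for Sirt7 Dnajc15 (0.933), Pop7 (0.918) and Pitpnb (0.915). All r values come from the same 10 libraries, and the highest of many r values over 10 animals is large by selection.

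Genes that make or use NAD, regulate SIRT1 or encode sirtuin substrates, partners or targets were counted in 6 lists. Of 97 tested genes, 2 rose and 1 fell, beside 5.08% of all tested genes called in either direction, and their median log2 fold change was 0.01, beside -0.00 for all genes. The 18 with an unadjusted p under 0.05 compare with 24.5% of all tested genes. None of the 14 tested genes of NAD synthesis and breakdown was called with all animals, and their median was -0.01. The smallest p values there belonged to Afmid, of tryptophan breakdown (-0.36 ± 0.13, edgeR adjusted p = 0.101), Nnmt, which methylates nicotinamide (-1.03 ± 0.40, adjusted p = 0.137), and Nudt12, which cleaves NADH (0.24 ± 0.11, adjusted p = 0.196). Nnmt was low throughout, at 2.14 ± 0.946 CPM in untreated animals and 1.03 ± 0.439 CPM with RG2833 (SD, n = 5 each). Without untreated replicate 4, Afmid (-0.43, edgeR adjusted p = 0.0342) and Nnmt (-1.27, adjusted p = 0.0213) were called lower. In that fit 13 of the pathway genes and 1556 of all genes were called, beside 3 and 599 with all animals.

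Among 11 tested enzymes of ADP-ribose metabolism, Parp14 fell and no other gene was called, with a list median of -0.08. PARP14 adds single ADP-ribose units to proteins and is induced by interferon. It read 14.2, 13.2, 10.1, 10.2 and 8.67 CPM in untreated replicates 1 to 5 and 5.44, 6.69, 7.24, 8.38 and 8.37 CPM with RG2833. The groups did not overlap, and the log2 fold change was -0.64 ± 0.17 (SE), with an edgeR adjusted p of 0.0471. Of the 10 fits that left out an animal, the call was kept in 2, without untreated replicate 4 or 5, and the adjusted p over the 10 ran from 0.0254 to 0.105 (0.0957 without untreated replicate 1). With limma-voom the call was lost as well (-0.63, adjusted p = 0.0513). In edgeR it was also lost without the filter on low counts (adjusted p = 0.051) and with the replicate block (0.119). The oligodendrocyte score as a covariate took it away too (edgeR adjusted p = 0.0504). Macrod1, which removes ADP-ribose, and Parp1, the DNA damage sensor, were next in the list, at -0.24 and 0.10 (edgeR adjusted p = 0.276 and 0.453).

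Of 12 tested regulators of SIRT1, 10 had a fold change above 0 and none was called, with a median of 0.14. Usp22, a deubiquitinase that stabilises SIRT1, stood at 87.9 ± 26.3 CPM in untreated animals and 116 ± 19.9 CPM with RG2833 (SD, n = 5 each), a log2 fold change of 0.40 ± 0.18 with an edgeR adjusted p of 0.198. Csnk2a1, a kinase subunit, and Ccar2, an inhibitor of SIRT1, were at 0.17 and 0.11 (edgeR adjusted p = 0.262 and 0.280). Usp22 was called higher without untreated replicate 5 (0.56, edgeR adjusted p = 0.0479). Its fold change turned to -0.12 with the ribosomal share and -0.03 with the excitatory score as a covariate.

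Of 21 tested nuclear substrates, partners and targets, only Crtc1 was called with all animals, and the list median was 0.04. CRTC1 is a coactivator of CREB that responds to neuronal activity and is deacetylated by SIRT1. It read 52.5, 73.1, 68.0, 90.1 and 75.9 CPM in untreated replicates 1 to 5 and 106, 111, 107, 94.3 and 126 CPM with RG2833. The groups did not overlap, the log2 fold change was 0.60 ± 0.12 (SE), and the edgeR adjusted p was 0.0241. With an animal left out the call was kept in 5 of 10 fits (without untreated replicate 1, 2, 4 or 5, or RG2833 replicate 4), and the adjusted p ran from 0.00344 to 0.0720. The replicate block took the call away (0.61, edgeR adjusted p = 0.0526). With the excitatory marker score as a covariate the Crtc1 fold change was 0.21 (edgeR adjusted p = 0.805), and with the ribosomal share it was 0.51 (adjusted p = 1.00). Ubtf, the ribosomal DNA factor of the polymerase I machinery that SIRT7 binds, was also without overlap, at 157 to 191 CPM and 192 to 207 CPM, but was not called (0.20 ± 0.07, edgeR adjusted p = 0.104). It was called without untreated replicate 4 (0.24, edgeR adjusted p = 0.0445) and with DESeq2 (0.20, adjusted p = 0.0421). Srebf1, a regulator of lipid synthesis, was at 0.28 ± 0.11 (edgeR adjusted p = 0.160).

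None of 12 tested cytoplasmic substrates was called with all animals, with a median of 0.02. The tubulin gene Tuba4a was at 0.28 ± 0.10 and the cell polarity gene Pard3 at 0.31 ± 0.10 (edgeR adjusted p = 0.0961 and 0.0964), while Tuba1a was at 0.09 (edgeR adjusted p = 0.563). Without untreated replicate 4, Tuba4a (0.34, edgeR adjusted p = 0.0323) and Pard3 (0.37, adjusted p = 0.0398) were called higher, and Tuba4a was also called with DESeq2 (0.28, adjusted p = 0.0448).

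Of 27 tested mitochondrial substrates, 17 had a fold change below 0 and only Ppif was called with all animals, with a list median of -0.05. PPIF, cyclophilin D, regulates the mitochondrial permeability pore and is deacetylated by SIRT3. It read 18.5, 16.9, 17.7, 17.2 and 18.6 CPM in untreated replicates 1 to 5 and 25.7, 23.8, 20.5, 21.8 and 21.2 CPM with RG2833, without overlap. Its log2 fold change was 0.35 ± 0.09 (SE), with an edgeR adjusted p of 0.0420. The call was kept in 2 of 10 fits with an animal left out (untreated replicate 4 or 5), with adjusted p from 0.0396 to 0.103 (0.0713 without untreated replicate 1). In edgeR the Ppif call was also lost without the filter on low counts (adjusted p = 0.056). The same held with the replicate block (0.095) and with the oligodendrocyte score as a covariate (0.0594). Acadm, of fatty acid oxidation, and Slc25a5, an ADP/ATP carrier, were at -0.35 ± 0.12 and -0.27 ± 0.09 (edgeR adjusted p = 0.0907 and 0.0929). Acadm was called lower without untreated replicate 4 (-0.40, edgeR adjusted p = 0.0409) or 5 (-0.41, adjusted p = 0.0478), and with DESeq2 both Acadm (-0.35, adjusted p = 0.0494) and Slc25a5 (-0.27, adjusted p = 0.0439) were called. With the ribosomal share or the excitatory marker score as a covariate, none of the 97 genes was called.

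These 2 fits also moved the size of the fold changes. The called genes Parp14 and Ppif stood at -0.76 and 0.46 with the ribosomal share, and at -0.43 and 0.41 with the excitatory score. Afmid stood at -0.13 and -0.09, Nnmt at -0.23 and -0.24, and Acadm at -0.06 and -0.12, in the same order of fits. Ccar2 was at 0.03 and 0.01 and Tuba1a at 0.12 and 0.24. Pard3 was at 0.05 in both, Tuba4a at 0.04 and 0.22, and Srebf1 at -0.10 and 0.14. Ubtf was at 0.24 and 0.10, and Slc25a5 at -0.25 and -0.11.

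**Figure D5:**
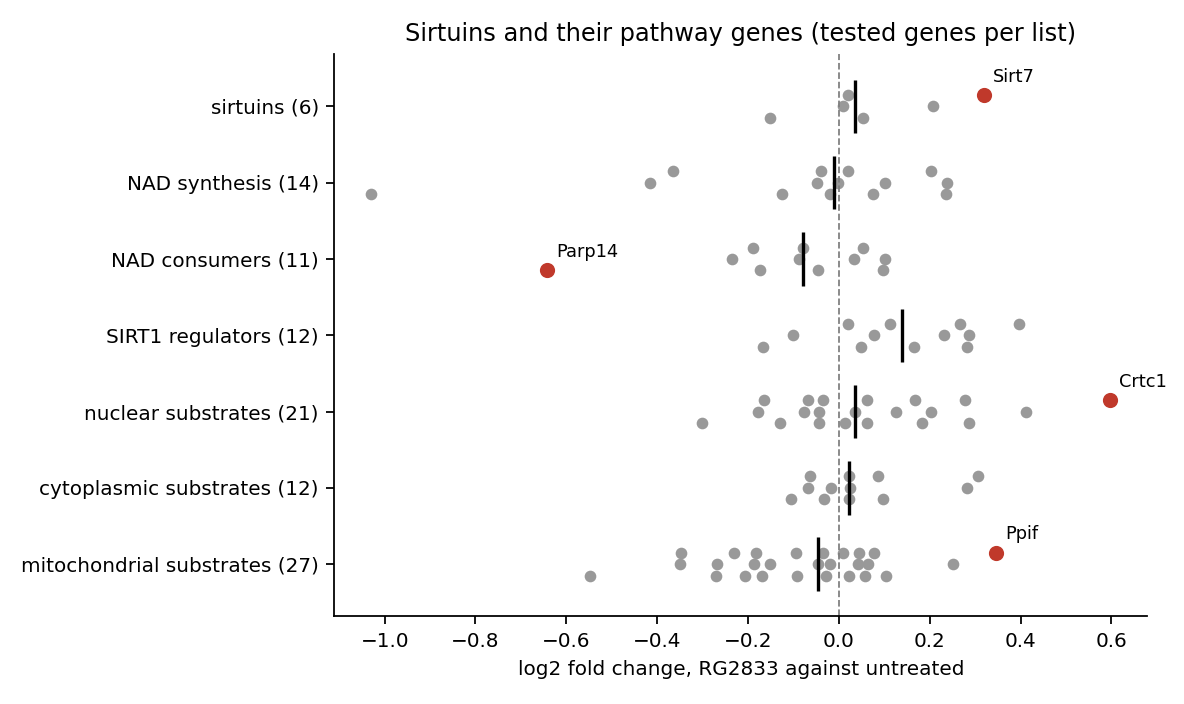
Log2 fold change, RG2833 against untreated, of each tested gene in the sirtuin family and 6 pathway lists (number tested in brackets), with the list median (vertical bar) and called genes in red. Sirt7, Parp14, Crtc1 and Ppif are the called genes, and the list medians lie between -0.08 and 0.14.

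Transcript overlap bears on a pair of the sirtuins. In the GRCr8 annotation Sirt2 shares its span with LOC103689966, a protein-coding gene, and Sirt4 with 2 snRNA loci. The library kit keeps strand, but the strand setting of the counting is not given in the sources used here, so reads of these neighbours could be counted in Sirt2 or Sirt4.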

How the data were processed

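RNA was extracted with the RNeasy Mini Kit and made into stranded mRNA libraries, per the labels' protocols. The deposited expected counts are RSEM estimates per gene symbol. The deposited signal is those counts as CPM after TMM scaling, per the file headers. The submitters' processing notes name bcl2fastq 2.17, Bowtie2 2.1.0, RSEM 1.2.15, edgeR and build rn6. The annotation and the strand setting are not given in the sources used here.

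Expected counts were rounded, filtered with filterByExpr, scaled by TMM and fitted with edgeR 4.0.16 (R 4.3.3) over all 10 libraries without covariates. CPM was computed from these counts, and for the sirtuins it lay within 0.705% of the deposited values. Log2 CPM used a prior count of 2. Alternatives used limma 3.58.1 and DESeq2 1.42.0. The edgeR code was checked on simulated counts. Samples were grouped by the labels, and each is described as a separate rat. Named genes are the sirtuins, the called genes of each list (with the smallest p values up to 3), and the 3 genes most like each sirtuin. The members and lists were chosen with earlier results of these data known. Intervals cover the spread between animals and counting.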

Additional observations from a re-analysis of the deposited data

Results flagged for a closer look

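Among 48 groups of 5 animals screened for an outlying value, 1 had one, and chance gives about 5% of groups. In RG2833 replicate 5, Usp22 stood at 150.0 CPM, beside 103 to 116 CPM in the other 4 treated animals. The gap was 0.718 of the group's whole range, above Dixon's limit of 0.71 for 5 samples. No sirtuin had such a value.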

How the results depend on the processing

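Sirt7 kept its sign in all 22 alternatives and Sirt6 did too. Sirt7 lost its call without the filter on low counts (0.32, edgeR adjusted p = 0.0609), with the replicate block (0.32, 0.108), and with the ribosomal share (0.35, 1.00), the oligodendrocyte score (0.31, 0.0744) or the excitatory score (0.42, 0.619) as a covariate. Leaving out each animal in turn gave 0.28 to 0.37. The cause was not tested. Sirtuin calls then numbered 0 in place of 1 in those 5 settings, and 0 to 1 with an animal left out. Calls among the 97 pathway genes, 3 in the main test, numbered 1 without the filter, 7 with DESeq2, 2 with limma-voom, 0 with the replicate block, 0 with the ribosomal share, 1 with the oligodendrocyte score and 0 with the excitatory score. With an animal left out they numbered 0 to 13, with 13 without untreated replicate 4. All genes called, 599, numbered 1286 with DESeq2, 180 with the block, 358 with the oligodendrocyte score, 2 with the ribosomal share, 5 with the excitatory score and 98 to 1556 with an animal left out. Library totals without scaling gave 228 higher and 367 lower in place of 284 and 315.

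The following fold changes changed sign. Sirt3 was at -0.0030 with library totals, -0.0048 with a mean count of at least 50 and -0.011 with the oligodendrocyte score. Sirt2 was at -0.10 with the ribosomal share and Sirt4 at 0.0069 with the excitatory score. With an animal left out, Sirt2 ranged from -0.0095 to 0.13, Sirt3 from -0.036 to 0.057 and Sirt5 from -0.0076 to 0.053, while Sirt4 stayed below 0, from -0.25 to -0.035. With the ribosomal share, Nudt12 was at -0.0068, Macrod1 at 0.13, Parp1 at -0.026, Usp22 at -0.12, Csnk2a1 at -0.013 and Srebf1 at -0.097. With the excitatory score, Macrod1 was at 0.062, Parp1 at -0.11, Usp22 at -0.028 and Csnk2a1 at -0.0013. Sirt4 has no value at a mean count of at least 50. The equal replicate numbers name different rats, and same-numbered rats did not deviate together (r from -0.319 to 0.151), so they pair nothing. Sirt4 had the fewest counts of the 6 sirtuins, 23 to 54 per library.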
